A study of Mus musculus with 2 samples.

Results

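Isl1 and Osr1, a pair of transcription factor genes of the second heart field, were followed through every cell class of the dissected tissue and through single progenitor cells. They were chosen by gene symbol, and they are 2 of the 52550 gene identifiers in the files. Cells were placed in classes by other markers, so neither gene took part in defining a class. On GRCm38 (mm10), Isl1 (ENSMUSG00000042258.13) lies on chromosome 13 at 116298281 to 116309689 on the minus strand, a protein-coding gene with 5 annotated transcripts of up to 6 exons. Osr1 (ENSMUSG00000048387.8) lies on chromosome 12 at 9570116 to 9581500 on the plus strand, a protein-coding gene with 2 transcripts of up to 3 exons. The long noncoding RNA 1700022H16Rik overlaps the start of Osr1 on the opposite strand and had 0 UMIs in both libraries. The samples were 2 Drop-seq libraries, replicates 1 and 2, made on different days. Each pooled tissue of about 80 wild-type CD1 embryos, dissected at E10.0 to take the heart tube and the posterior second heart field behind it. Drop-seq captures polyadenylated RNA of a cell on a barcoded bead in a droplet, and the unique molecular identifier (UMI) of each captured molecule lets it be counted once. With 1 group and no mutant, every comparison is between cells of the same libraries.

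Isl1 encodes a LIM-homeodomain transcription factor that marks undifferentiated cardiac progenitors behind the heart tube, and it works with LIM-binding cofactors such as Ldb1. It is also a standard marker of motor and sensory neurons and is found in pharyngeal and foregut endoderm. Osr1 encodes an odd-skipped zinc-finger factor of lateral plate and intermediate mesoderm, and in the posterior second heart field it is known for a role in atrial septum formation. Hedgehog signals from the foregut endoderm reach these mesodermal cells, and GLI factors carry the response.

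The 5000 barcodes of replicate 1 had 11958912 UMIs in all and the 7497 of replicate 2 had 14131384, and 82 barcode sequences occurred in both. Filtering for 400 or more genes and no more than 10% of UMIs from mitochondrial genes left 4038 and 4934 cells, with medians of 1364 and 1505 UMIs. A cell entered a class when it had UMIs of a minimum number of different markers of that class and met no other class's rule. Progenitors needed 2 of 13 markers: Tbx5, Aldh1a2, Foxf1, Foxf2, Fendrr, Hoxb1, Wnt2, Nkx6-1, Barx1, Gata4, Gata6, Hand1 and Cxcl13. Of 16 classes, 13 had at least 20 cells in each library and were compared. The rule left 2211 and 2803 cells in no class and 494 and 471 in several. The tissue held cardiomyocytes (72 and 127 cells), in which the 12 sarcomere and other cardiomyocyte markers summed to far higher levels than in progenitors (24780 and 25294 UMIs per 1000000, CPM, against 313 and 395). The 465 and 476 progenitors carried 1457 and 1532 CPM of their own 13 markers, and all 13 were detected in each library.

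Isl1 was spread over 3 germ layers. It was highest in neurons, with 312 CPM in replicate 1 and 355 in replicate 2, both above every other class compared. Foregut endoderm followed with 149 and 189 CPM, then pharyngeal mesoderm with 123 and 140, progenitors with 135 and 105, and cardiomyocytes with 81.7 and 144. The ranges of the last 3 classes overlapped, and those of endoderm and pharyngeal mesoderm did not. Lower levels were found in surface ectoderm (32.2 and 80.3 CPM), paraxial mesoderm (24.8 and 70.4), epicardium or mesothelium (13.4 and 62.3), endothelium or endocardium (33.4 and 21.6) and ectomesenchyme (29.6 and 7.55). In each of these 5 classes the libraries differed by more than 1.5 times. Neural crest or glia (6.74 and 4.60 CPM), neural tube (6.51 and 4.44) and erythroid cells (0.982 and 1.06) had 1 Isl1 UMI in each library.

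Osr1 had a narrower distribution. Progenitors stood at the top with 217 and 253 CPM, and no other class compared reached 100 CPM in either library. Foregut endoderm had 89.8 and 90.5 CPM, pharyngeal mesoderm 90.9 and 66.9, and cardiomyocytes 66.9 and 50.5, and the range of pharyngeal mesoderm enclosed that of endoderm and bordered that of cardiomyocytes. Surface ectoderm had 19.3 and 27.7 CPM. The other 8 classes were at or below 13.4 CPM in both libraries, and neural crest or glia had 0 UMIs, where 3 UMIs would have been 20.2 and 13.8 CPM. Neurons, the class with the highest Isl1, had 0 and 1 Osr1 UMIs.

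**Figure D1:**
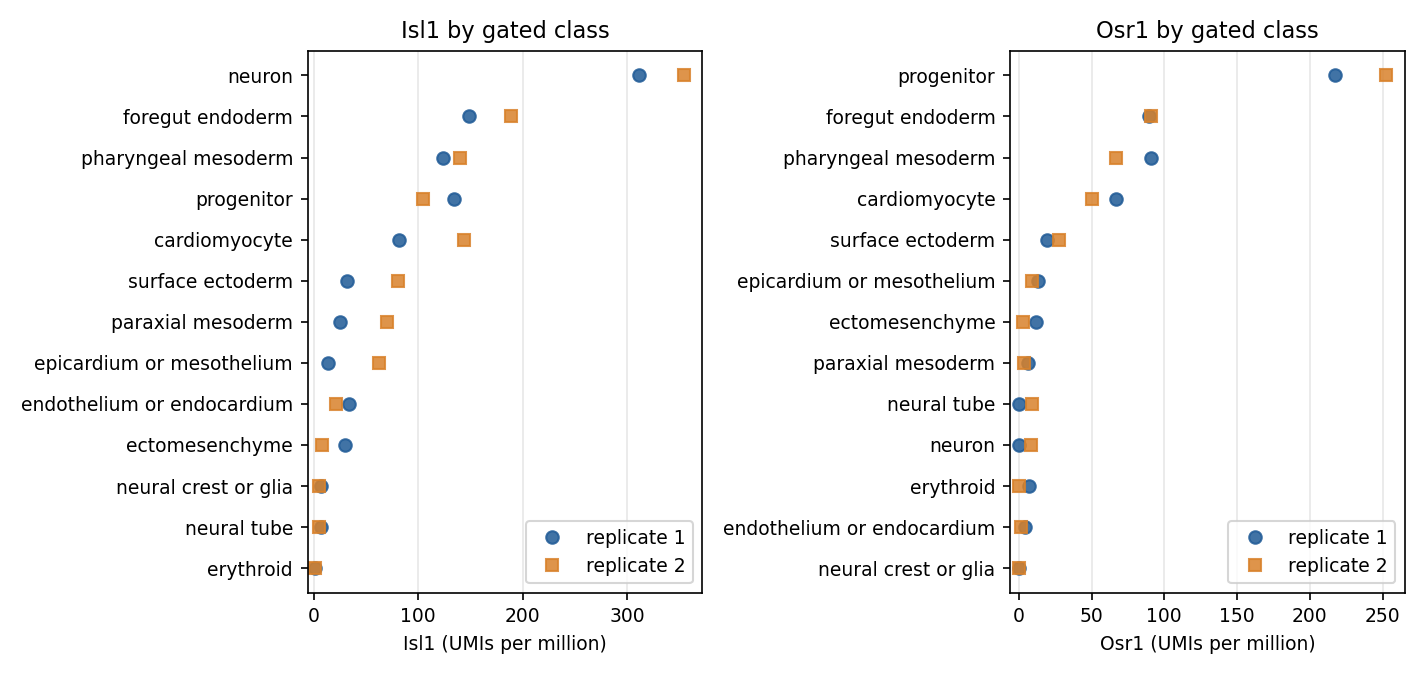
Isl1 (left) and Osr1 (right) in UMIs per 1000000 (CPM) for each gated cell class (rows, ordered by the mean) in replicate 1 (circles) and replicate 2 (squares). Isl1 is highest in neurons (312 and 355), whereas Osr1 is highest in progenitors (217 and 253) and near 0 in neurons.

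The level of Osr1 in progenitors exceeded that of each class tested against them. Summed UMIs were compared with edgeR's quasi-likelihood test, with the library as a block and p-values adjusted over 7723 genes. Osr1 was higher in progenitors than in cardiomyocytes by 1.94 ± 0.29 on the log2 scale (SE, adjusted p = 2.03e-07), in a contrast where 13.9% of genes passed, 5.58% higher and 8.3% lower in progenitors. Against foregut endoderm it was higher by 1.37 ± 0.18 (edgeR adjusted p = 8.53e-09), where 9.18% of genes passed, 4.14% higher and 5.04% lower. Against the neural tube, 652 UMIs stood beside 2, a ratio of 44.3 (exact 95% interval 12.2 to 366, counting error only), and the edgeR adjusted p was 5.51e-14, where 7.38% of genes passed, 4.36% higher and 3.02% lower. Against neurons, 652 UMIs stood beside 1, a ratio of 57.6 (10.3 to 2279), and the edgeR adjusted p was 7.05e-11, where 3.29% of genes passed, 1.13% higher and 2.16% lower. All 4 differences had the same direction in both libraries.

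Isl1 gave another order. It was lower in progenitors than in neurons by 1.48 ± 0.24 on the log2 scale (log2 difference -1.48, edgeR adjusted p = 4.05e-06) and lower in both libraries. It was higher than in the neural tube, 336 UMIs beside 2, a ratio of 22.8 (exact 95% interval 6.27 to 189, counting error only; edgeR adjusted p = 5.45e-08). Against foregut endoderm the log2 difference of -0.49 ± 0.18 did not pass (edgeR adjusted p = 0.0834). Against cardiomyocytes it was -0.12 ± 0.27 (edgeR adjusted p = 0.849), with an approximate 95% interval of -0.65 to 0.42, and the libraries went opposite ways: replicate 1 alone gave 0.73 and replicate 2 alone -0.45. Within cardiomyocytes the share of cells with an Isl1 UMI was 9.72% (exact 95% interval 4.0% to 19%) in replicate 1 and 16.5% (10.5% to 24.2%) in replicate 2.

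Genes that act with or downstream of Isl1 in the heart were mostly lower in progenitors than in cardiomyocytes. Of 10 such genes, 7 were lower, 0 were higher and 3 did not pass, where 8.3% of all genes were lower and 5.58% higher. The median log2 difference of the 10 was -2.28 beside 0.05 over all genes. Nkx2-5, a core cardiac transcription factor, had 14.9 and 29.8 CPM in progenitors and 290 and 474 in cardiomyocytes. Mef2c, a myogenic factor that is a known Isl1 target in the anterior field, had 39.9 and 38.9 CPM against 305 and 361. Of 4 venous pole and pacemaker genes, 3 were lower in progenitors. Shox2, a factor of the sinus venosus and pacemaker, had 27.1 and 16 CPM in progenitors against 223 and 128, and the pacemaker channel gene Hcn4 had 13.5 and 7.63 against 44.6 and 54.4. Among the LIM complex cofactors, 7 of 8 did not pass, and Lmo2 was lower in progenitors (1.35 and 2.29 CPM against 14.9 and 23.3). The Hedgehog genes tested here, 5 in number without the gate markers, did not pass in this contrast, and their median log2 difference was 1.10. Ptch1, the receptor and a GLI target, had 94.0 and 64.1 CPM in progenitors and 37.1 and 34.9 in cardiomyocytes (edgeR adjusted p = 0.102).

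Against foregut endoderm, 3 of the 10 Isl1-linked genes were higher in progenitors and 0 were lower. Of all genes, 4.14% were higher and 5.04% lower, and the median log2 difference of the 10 was 1.78 beside 0.02 over all genes. Hand2 had 56.2 and 39.7 CPM in progenitors and 3.59 and 5.66 in endoderm, Mef2c had 39.9 and 38.9 against 5.39 and 7.55, and Fgf10, a growth factor of the second heart field, had 70 UMIs against 1. Of 5 Hedgehog genes, 3 were higher in progenitors: Gas1, a co-receptor, with 70.4 and 76.3 CPM against 19.8 and 5.66, Gli3, a GLI factor, with 30.4 and 39.7 against 10.8 and 13.2, and Foxc2, with 36 UMIs against 2. Of 8 LIM cofactors, 1 was higher in progenitors, 1 was lower and 6 did not pass. Ssbp2, a partner of Ldb1, was higher, with 60.9 and 80.9 CPM against 32.3 and 39.6 (edgeR adjusted p = 0.0209), and Lmo2 was lower, with 5 UMIs against 13, of which 12 were in replicate 1. Of 16 genes of Isl1 neuron subtypes, 6 were tested against neurons. Of these, 5 were lower in progenitors, where 2.16% of all genes were lower. The median log2 difference of the 6 was -5.60 beside 0.05 over all genes. The filter on low counts keeps a gene that is high in neurons alone, so this direction is no separate result.

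Free RNA in the droplets can give UMIs in cells that do not express a gene. The part of free RNA in the levels given here was not tested. In erythroid cells, which should lack both genes, 0.699% and 0.800% of cells had an Isl1 UMI and 2.80% and 0% an Osr1 UMI, at medians of 3906 and 6511 UMIs per cell. In endothelium or endocardium the shares were 5.17% and 7.06% for Isl1 and 1.72% and 0.588% for Osr1, at medians of 1883 and 2320.5 UMIs. The progenitors, at medians of 2079 and 2065.5 UMIs, had Isl1 in 20.9% and 18.3% of cells and Osr1 in 30.5% and 30.7%. The endoderm had Isl1 in 26.8% and 33.3% of cells and Osr1 in 23.5% and 20.5%. In barcodes with 10 to 200 UMIs, Isl1 had 0 UMIs in each library and Osr1 had 3, but those barcodes held 8713 and 55494 UMIs, so their depth allows no finer statement. Endoderm cells without a single progenitor marker still carried Osr1 at 75.1 and 84.3 CPM, in 18.4% and 17.1% of 98 and 111 cells.

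Detection within progenitors was sparse. In replicate 1, 45 progenitors had 1 Isl1 UMI, 26 had 2 and 26 had 3 or more, with at most 7. In replicate 2 the counts were 54, 21 and 12, with at most 5. For Osr1 the counts were 66, 31 and 45 in replicate 1 and 64, 42 and 40 in replicate 2, with at most 9 and 12. Most progenitors therefore had a UMI of neither gene (276 and 287 cells), and a cell with 0 UMIs is not shown to lack the transcript.

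Isl1 and Osr1 were often found in the same progenitor. Of 97 progenitors with Isl1 in replicate 1, 50 also had Osr1, or 51.5% (exact 95% binomial interval 41.2% to 61.8%, counting error only). In replicate 2 it was 44 of 87, or 50.6% (39.6% to 61.5%). Progenitors without Isl1 had Osr1 in 25.0% (20.7% to 29.8%) and 26.2% (21.9% to 30.9%) of cells. With 1 more marker required for every gate, the shares were 59.6% and 57.7% with Isl1 and 38% and 45.7% without. The intervals then overlapped in replicate 2. Read the other way, 35.2% and 30.1% of Osr1 cells had Isl1, against 14.6% and 13% of cells without Osr1. Under the original gate the intervals of cells with and without Isl1 did not overlap in either library. Depth moved with this pattern: progenitors with Isl1 had medians of 2875 and 2719 UMIs and those without had 1920.5 and 1943. With every cell thinned to 1000 UMIs and gated again, the shares were 24% (6 of 25) and 29.6% (8 of 27) with Isl1 and 19.6% and 20% without, and their intervals overlapped. In bands of depth, the share was higher with Isl1 in 6 of 8 bands of the 2 libraries, for example 65.2% against 41.9% and 65.2% against 21.7% at 4000 to 8000 UMIs. It was lower in replicate 1 at 2000 to 4000 UMIs (24% against 25%) and in replicate 2 above 8000 UMIs (50% of 8 cells against 54.5% of 11).

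In foregut endoderm, Osr1 was found in 14 of 41 endoderm cells with Isl1 (34.1%, 20.1% to 50.6%) and in 15 of 52 (28.8%, 17.1% to 43.1%), against 19.6% and 16.3% of those without, and the intervals overlapped. Isl1 cells were again the deeper ones, with medians of 3921 and 4136.5 UMIs against 2263.5 and 1956. No cardiomyocyte had both genes: 0 of 7 Isl1 cells in replicate 1 (exact upper limit 41.0%) and 0 of 21 in replicate 2 (16.1%) had Osr1. With 1 more marker required for every gate, 1 of 9 and 3 of 36 cardiomyocytes with Isl1 had Osr1. That setting also admits cells that had met several gates, whose number fell from 494 and 471 to 176 and 152. No neuron had both, among 14 and 17 neurons with Isl1. In pharyngeal mesoderm the libraries disagreed, with Osr1 in 5 of 9 Isl1 cells and in 1 of 24.

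**Figure D2:**
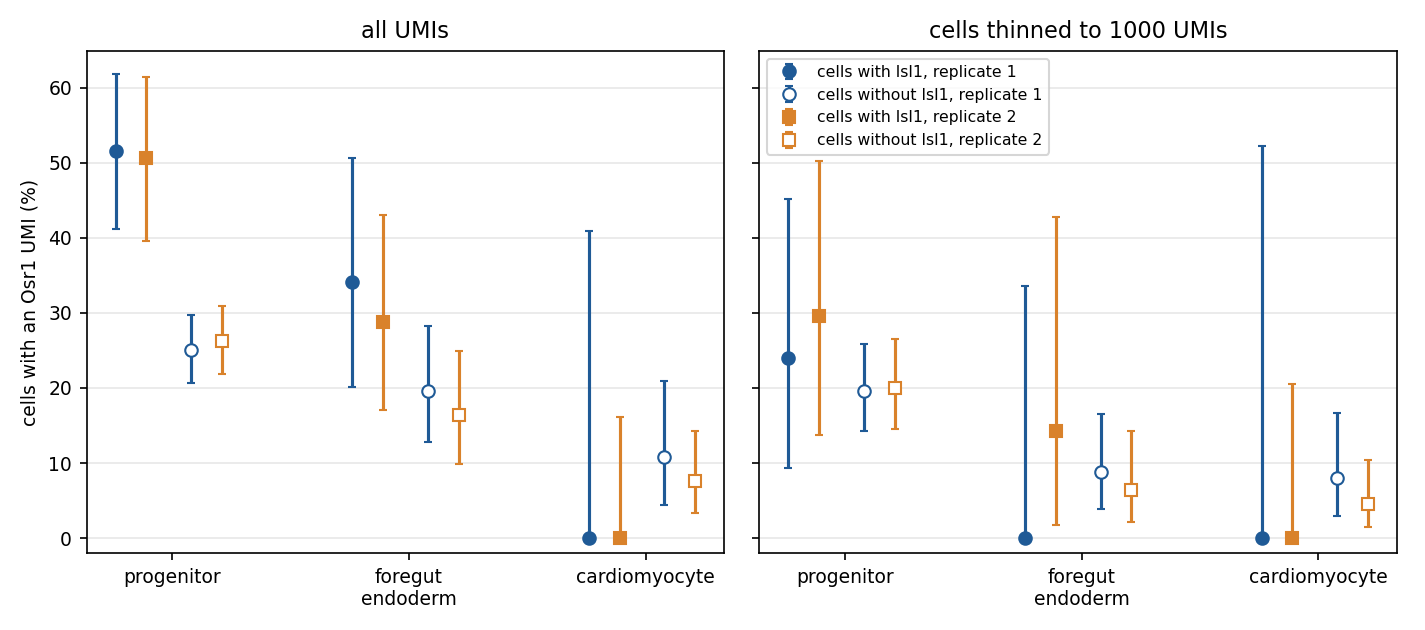
Percent of cells with an Osr1 UMI (vertical axis) among cells with Isl1 (filled) and without Isl1 (open) for 3 classes, with exact 95% binomial intervals, for all UMIs (left) and cells thinned to 1000 UMIs (right). In progenitors the shares with Isl1 (51.5% and 50.6%) lie above those without (25.0% and 26.2%), and after thinning the intervals overlap.

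As a level in CPM, which is divided by the total UMIs, Osr1 was also higher in progenitors with Isl1. It stood at 279 and 348 CPM with Isl1 and at 188 and 220 without, and the ranges did not overlap. The log2 difference was 0.61 ± 0.14 (edgeR adjusted p = 0.0212, in an added fit of progenitors and endoderm split on Isl1, where 0.7% of 6717 genes passed). The call was lost with DESeq2, without the library block, without the filter on low counts, with thinned cells and with 1 more marker required, with adjusted p from 0.142 to 1. In endoderm the levels were 75.5 and 82.4 CPM with Isl1 and 99.6 and 98.8 without, a log2 difference of -0.33 ± 0.30 that did not pass (edgeR adjusted p = 0.979). The difference between the classes, 0.94 ± 0.33, did not pass either (edgeR adjusted p = 0.693, where 0.0447% of genes passed).

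Inside the progenitor gate, Isl1 differed between cells with heart-side and foregut-side markers, while the ranges of Osr1 overlapped. Tbx5 marks the cardiac side of the field, while Barx1 and Nkx6-1 mark mesenchyme of stomach and foregut. Isl1 was at 255 and 159 CPM in cells with Barx1 or Nkx6-1 and no Tbx5, above the 98.2 and 102 CPM of cells with Tbx5 and neither of them. Osr1 was at 203 and 308 CPM in the former and at 242 and 325 in the latter, with ranges that overlapped. These groups held 121 and 112 cells against 82 and 94, at similar median depths of 2096 and 2239 against 2147.5 and 2122.5 UMIs. Cells with Tbx5 together with Barx1 or Nkx6-1 had 111 and 91.4 CPM of Isl1 and 369 and 320 of Osr1, at greater depth (medians 4035 and 3372 UMIs). Cells with none of the 3 markers had 91.2 and 78.9 CPM of Isl1 and 149 and 179 of Osr1, the lowest of the 4 subsets for both genes. These are levels without a test, and they pool Barx1 and Nkx6-1, which did not go together. Barx1 had 283 and 175 CPM in progenitors with Isl1 and no Osr1 UMI, against 40.4 and 87.1 with Osr1 and no Isl1 UMI. Nkx6-1 went the other way, with 104 and 41.9 CPM against 180 and 115, a difference that did not pass (edgeR).

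**Figure D3:**
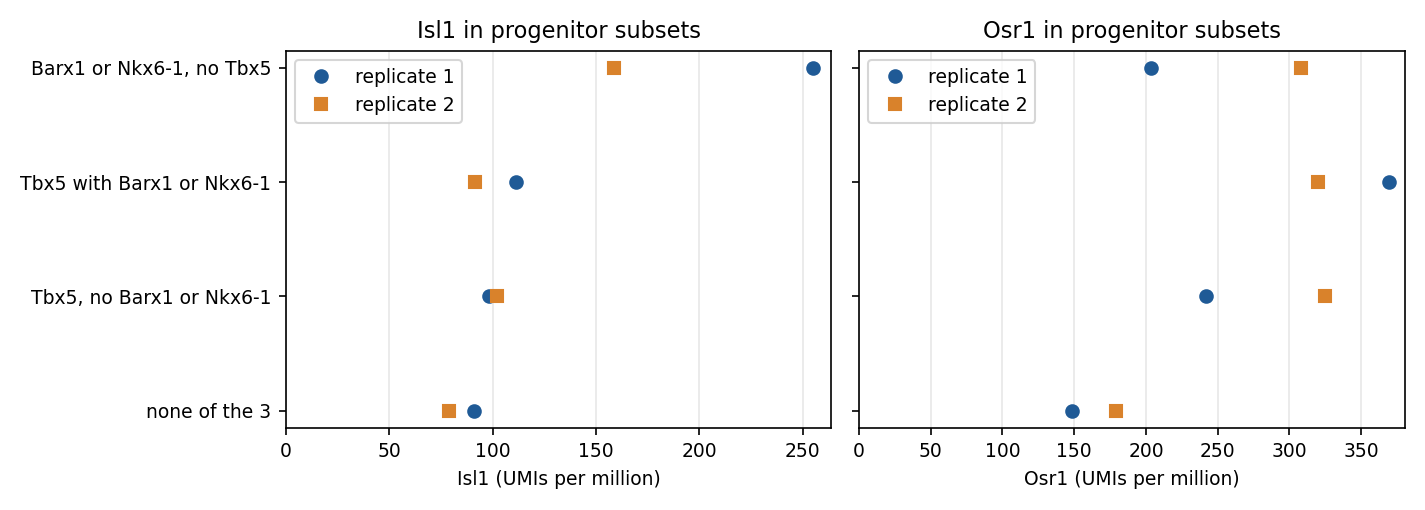
Isl1 (left) and Osr1 (right) in CPM in 4 subsets of the progenitor gate (rows) for replicate 1 (circles) and replicate 2 (squares). Isl1 is highest in cells with Barx1 or Nkx6-1 and no Tbx5 (255 and 159). Both genes are lowest in cells with none of the 3 markers (Isl1 91.2 and 78.9, Osr1 149 and 179).

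Progenitors with Isl1 and no Osr1 UMI (Isl1-only, 47 and 43 cells) were then set against those with Osr1 and no Isl1 UMI (Osr1-only, 92 and 102 cells), which have similar depths (medians 2479 and 2314 against 2524 and 2533 UMIs). Of 6553 genes, 18 passed (0.275%), 10 higher in Isl1-only cells (0.153%) and 8 lower (0.122%). Barx1, Dlk1 and Ccnd2 were among those higher in Isl1-only cells than in Osr1-only cells, and Cxcl13, Sparcl1, Aldh1a2 and Vcan among those lower. Of the 18, 4 are gate markers: Barx1, Hand1, Aldh1a2 and Cxcl13.

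On the Isl1 side, Barx1, a homeobox gene of stomach mesenchyme, had 283 and 175 CPM in Isl1-only cells against 40.4 and 87.1 in Osr1-only cells. The groups did not overlap, and the log2 difference was 1.88 ± 0.33 (edgeR adjusted p = 0.0016). Dlk1, an imprinted gene of the Notch ligand family, had 416 and 433 CPM against 193 and 193. The log2 difference was 1.15 ± 0.21 (edgeR adjusted p = 0.0016). Hand1, a bHLH factor of the heart and extraembryonic mesoderm, had 52.0 and 147 CPM against 0 and 24.9. Shisa3, an inhibitor of Wnt and Fgf receptor maturation, had 57.8 and 97.9 CPM against 12.4 and 6.22. Pmp22, a membrane protein best known from myelin, had 57.8 and 126 CPM against 24.9 and 18.7, and Cgnl1, a junction protein, had 179 and 55.9 against 46.7 and 15.6. Ccnd2, the cyclin D2 gene, also passed, with 1364 and 958 CPM against 597 and 672. Progenitors with neither UMI had less Barx1 (95.1 and 95.6 CPM) and Ccnd2 (705 and 641) than Isl1-only cells, but more Dlk1 (991 and 1107). They had 51.2 and 83.5 CPM of Hand1, 68.8 and 74.4 of Shisa3, 60.0 and 112 of Pmp22, and 126 and 56.2 of Cgnl1. Hand1, Shisa3, Pmp22 and Cgnl1 did not pass between Isl1-only cells and progenitors with neither UMI (edgeR). The other 3 calls on this side rested on few cells. Of 33 Ripply3 UMIs in replicate 2, 32 came from 1 cell, which had 10213 UMIs and carried 6 of the 14 foregut endoderm markers beside 2 progenitor markers. The Isl1-only cells of replicate 2 had 0 CPM of Foxa1, Foxa2, Foxa3, Nkx2-1, Shh, Sox17 and Hhex. The 6 markers are therefore epithelial ones that were also used for surface ectoderm. Of 21 Phlda2 UMIs there, 19 came from 1 cell, and of 14 Dkk1 UMIs, 12 came from 1 cell. With the UMIs of the top cell left out of each sum, the differences of Ripply3 and Phlda2 on the log2(CPM + 10) scale were 0.22 and 0.66.

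On the Osr1 side, Cxcl13, a chemokine gene, had 320 and 264 CPM in Osr1-only cells against 80.9 and 62.9 in Isl1-only cells, and Isl1-only cells were lower by a log2 difference of -2.01 ± 0.29 (edgeR adjusted p = 9.27e-05). Sparcl1, a matricellular glycoprotein, had 501 and 274 CPM against 133 and 62.9 (-1.97 ± 0.29, edgeR adjusted p = 9.27e-05). Aldh1a2, which makes retinoic acid in the posterior field, had 246 and 289 CPM against 98.2 and 119 (-1.30 ± 0.26, edgeR adjusted p = 0.00673). In all 3 genes the groups did not overlap. Cldn11, a tight-junction claudin, had 121 and 49.8 CPM in Osr1-only cells and 0 UMIs in Isl1-only cells, so Osr1-only cells were at least 4.47-fold higher (taking 3 UMIs in each Isl1-only library as the limit). Emp1, an epithelial membrane protein, had 71.6 and 62.2 CPM and again 0 UMIs in Isl1-only cells (at least 3.49-fold higher). Pdlim4, an actin-associated PDZ-LIM protein, had 118 and 99.6 CPM against 11.6 and 28.0. Vcan, the matrix proteoglycan versican, had 868 and 352 CPM against 364 and 196, and Fam213a, a redox-regulatory protein, had 320 and 208 against 121 and 112. DESeq2 on the same sums called 4 genes, Dlk1, Cxcl13, Sparcl1 and Phlda2, and without the library block 0 genes passed (edgeR).

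**Figure D4:**
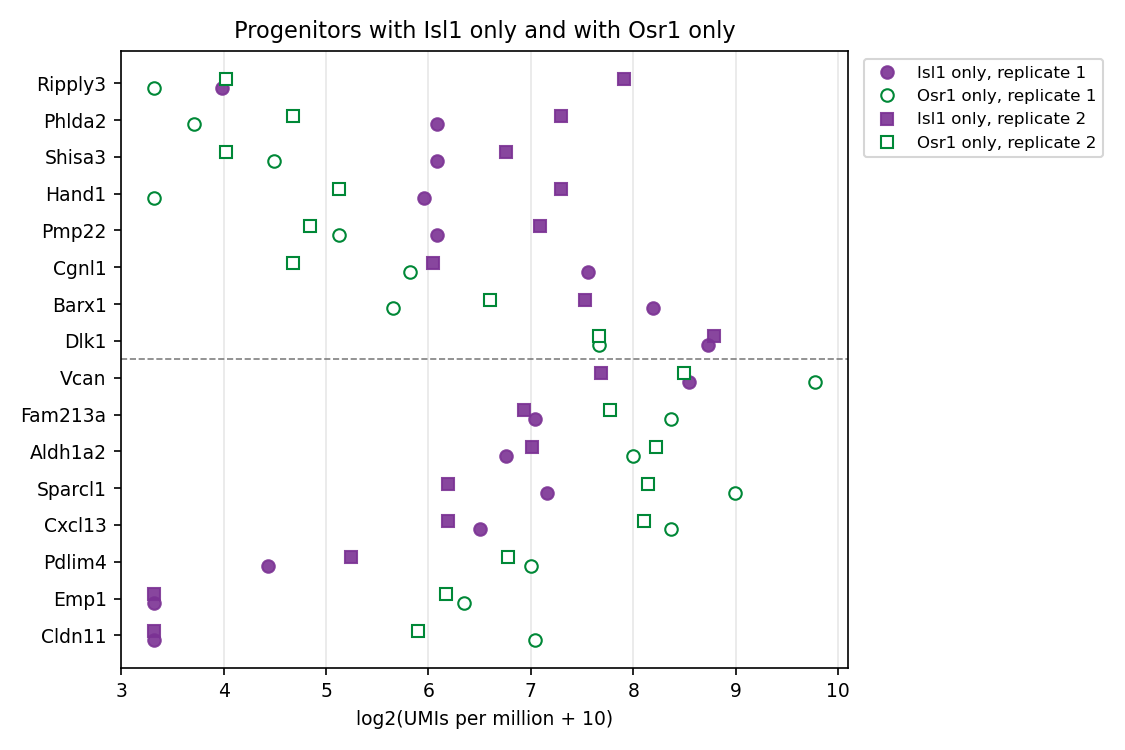
Level of 16 genes, as log2(CPM + 10), in progenitors with Isl1 only (filled) and with Osr1 only (open), for replicate 1 (circles) and replicate 2 (squares); genes above the dashed line were higher with Isl1 only. Cldn11 and Emp1 lie at the axis value of 0 UMIs in both Isl1-only sums, and the Ripply3 value of replicate 2 comes from 1 cell.

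Gene lists gave the same contrast a wider frame, although the posterior field and foregut lists include progenitor gate markers. Of 11 genes of the posterior second heart field, 1 was lower in Isl1-only cells (Aldh1a2), 0 were higher and 10 did not pass, and 2 of the 11 had a log2 difference above 0, with a median of -0.75 beside 0.00 over all genes. Foxf1, a forkhead gene of splanchnic mesoderm and a Hedgehog target, had 75.1 and 97.9 CPM in Isl1-only cells and 187 and 174 in Osr1-only cells (edgeR adjusted p = 0.269). Tbx5 had 92.4 and 112 against 218 and 128 (edgeR adjusted p = 0.655). Of 7 foregut and lung mesenchyme genes, 1 was higher in Isl1-only cells (Barx1) and 6 did not pass, among them Nkx6-1 with 104 and 41.9 CPM against 180 and 115. All 7 Hedgehog genes did not pass, with a median of -0.24. Gli1, the transcriptional readout of the pathway, had 23.1 and 28.0 CPM against 43.6 and 71.6 (edgeR adjusted p = 0.692). The 5 cardiac differentiation genes did not pass either, and all 5 had differences above 0, with a median of 0.76. Myl4, the atrial myosin light chain, had 110 and 245 CPM in Isl1-only cells against 90.2 and 12.4 (edgeR adjusted p = 0.0715). The summed cardiomyocyte markers stood at 341 and 517 CPM in Isl1-only and 277 and 193 in Osr1-only cells, and their part in these values was not tested. Of 5 anterior field genes, 5 Isl1-linked cardiac genes, 5 LIM cofactors and 14 cell cycle genes, 0 passed in this contrast. In that order 3, 3, 2 and 8 had differences above 0, with medians of 0.10, 0.68, -0.30 and 0.04. At an unadjusted p under 0.05, 471 of all 6553 genes passed with edgeR and 134 with DESeq2. Mef2c had 104 and 48.9 CPM in Isl1-only cells against 43.6 and 21.8, Hand2 had 52.0 and 28.0 against 21.8 and 9.33, and Ldb1 had 75.1 and 76.9 against 28.0 and 40.5. For these 3 genes the adjusted p was 0.655 or above (edgeR).

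The other contrasts used progenitors with neither UMI (276 and 287 cells) as their base and therefore share it. That base is shallower, with medians of 1789 and 1761 UMIs against 5212 and 3652 in cells with both genes. Its haemoglobin level was 3148 and 1538 CPM, against 1109 and 1234 in cells with both, and the part of depth and haemoglobin in the results was not tested. Osr1-only cells differed from the base in 62 genes (0.946%), 22 higher (0.336%) and 40 lower (0.61%). Cells with both genes differed in 46 (0.702%), 15 higher (0.229%) and 31 lower (0.473%). Isl1-only cells differed in 14 (0.214%), 6 higher (0.0916%) and 8 lower (0.122%).

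Of 11 posterior second heart field genes, 2 were higher in Osr1-only cells than in the base (Foxf1 and Aldh1a2), 0 were lower and 9 did not pass. Both are progenitor gate markers, and 7 of the 62 genes are markers of some gate. The part of the gate in their values was not tested. Foxf1 had 187 and 174 CPM against 74.6 and 91.1 (log2 difference 1.12 ± 0.24, edgeR adjusted p = 0.00633), and Aldh1a2 had 246 and 289 against 133 and 152. Sparcl1, Emp1 and Cldn11 were higher here too, as were Npnt, a basement membrane ligand of integrins, with 115 and 96.5 against 39.5 and 39.5 CPM, Mllt3 (258 and 134 against 92.2 and 60.7), Arl4a, Arhgap28 and Psrc1. Of 7 Hedgehog genes, 1 was higher (Foxf1) and 6 did not pass, with a median of 0.93 beside 0.01 over all genes. Ptch1 had 118 and 96.5 CPM against 61.5 and 47.1 (edgeR adjusted p = 0.169). Lower were Alcam, an adhesion molecule, with 21.8 and 12.4 CPM against 225 and 131 (-3.34 ± 0.42, edgeR adjusted p = 1.04e-06), Postn and Tnc, matrix proteins of mesenchyme, Msx2 and Mab21l2, genes of limb and body-wall mesoderm, and AV026068, Dok4 and Shisa3. Hand2, a bHLH factor of heart and limb, had 21.8 and 9.33 CPM against 82.0 and 57.7 and was lower as well (edgeR adjusted p = 0.00422).

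Cells with both genes had more Nr2f2 and Bmp4 and less Dlk1 than the base. Nr2f2, a nuclear receptor of atrial and venous identity, had 543 and 529 CPM against 227 and 270 in the base (1.09 ± 0.15, edgeR adjusted p = 1.56e-05). It also stood at 347 and 301 CPM in Isl1-only and 358 and 336 in Osr1-only cells, below both values of cells with both genes. Bmp4, a growth factor of the second heart field, had 157 and 230 CPM against 79.0 and 77.4 (1.27 ± 0.31, edgeR adjusted p = 0.0344). Plcb4, Ifitm1, Psrc1, Snrpn, Dpysl3 and Chd3 were higher by log2 differences of 1.04 to 2.10. Dlk1 was lower, with 160 and 144 CPM against 991 and 1107 (-2.76 ± 0.18, edgeR adjusted p = 4.04e-15). Prrx1 and Lbh, genes of limb and lateral mesenchyme, were lower and had 9.99 and 26.7 CPM against 124 and 108, and 13.3 and 10.7 against 93.7 and 88.0. Gap43, Angpt1, Lpl, Alcam and Dqx1 were also lower, and Dqx1 had 1 UMI in cells with both and, in the base, 100 and 25 UMIs from 7 and 3 cells, with 16 of the 25 from 1 cell. In this contrast 3 of the 46 genes are gate markers, and for 3 (Dqx1, Cflar and Cdkn1a), more than 50% of the UMIs of the higher arm came from 1 cell in at least 1 library.

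Isl1-only cells were higher than the base in Barx1 (283 and 175 CPM against 95.1 and 95.6), Ccnd2, the adhesion gene Cadm1 (196 and 231 against 101 and 92.6), the neurite-growth gene Dpysl3 and Ifitm1 (150 and 161 against 55.6 and 71.3). Ripply3 passed too, from the 1 cell described above. They were lower in Dlk1 (416 and 433 against 991 and 1107), in Ptn, the growth factor pleiotrophin (676 and 636 against 1747 and 1667), and in Anxa2, Pcolce, Asb4, Lgals1, Crabp1 and Tmsb4x. DESeq2 called 7 genes for Osr1-only, 4 for both and 2 for Isl1-only cells, and without the library block 6, 2 and 0 passed (edgeR).

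**Figure D5:**
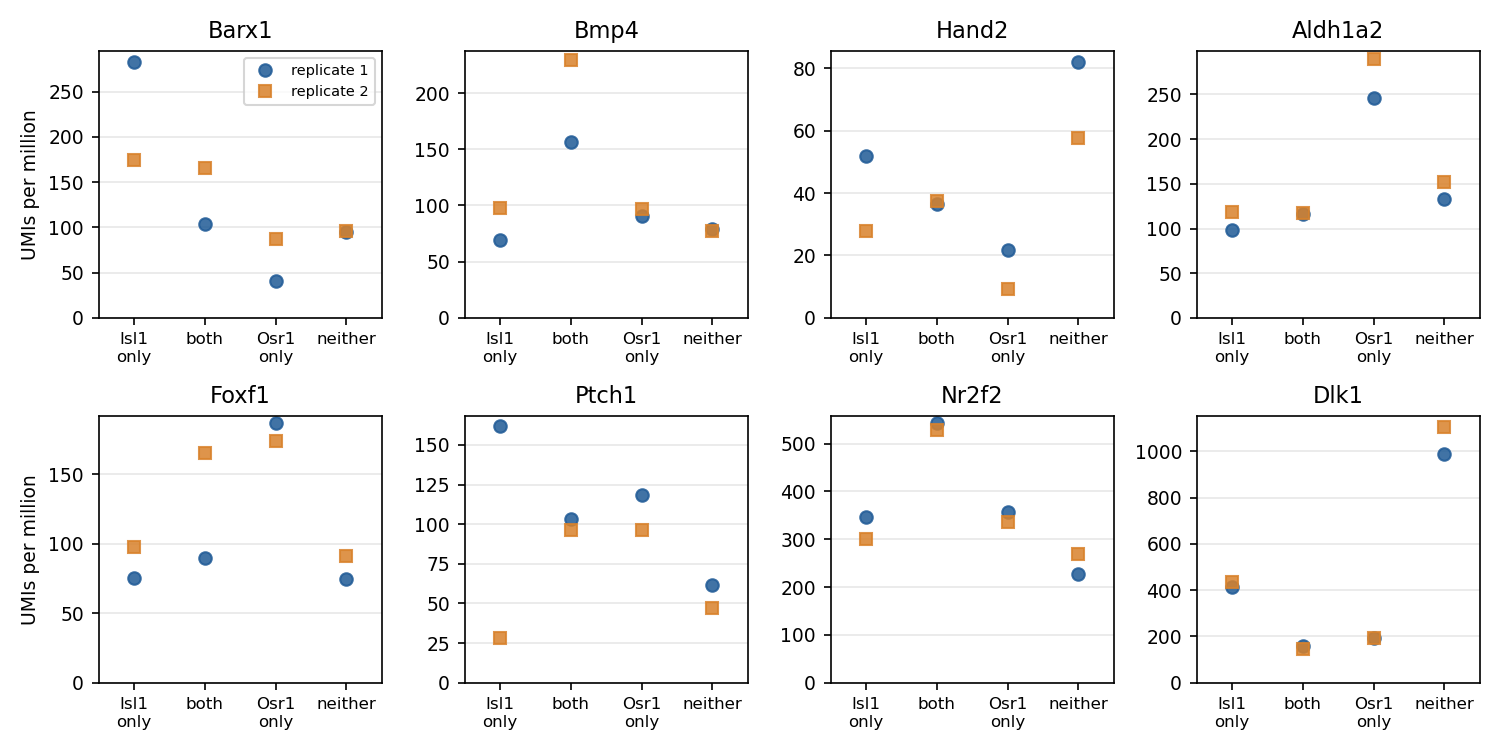
Levels of 8 genes in CPM in progenitors with Isl1 only, both genes, Osr1 only or neither, for replicate 1 (circles) and replicate 2 (squares); each panel has its own scale from 0. Aldh1a2 is highest with Osr1 only (246 and 289), Nr2f2 with both genes (543 and 529) and Dlk1 with neither (991 and 1107). The Ptch1 values of the Isl1-only sums (162 and 28.0) lie above and below those of all other arms.

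In foregut endoderm, cells with Isl1 (41 and 52) differed from those without (112 and 104) in 9 of 6554 genes (0.137%), 1 higher (0.0153%) and 8 lower (0.122%). Apela, which encodes the secreted peptide ligand Elabela of the apelin receptor, was higher with Isl1, at 222 and 360 CPM against 130 and 137 (1.10 ± 0.24, edgeR adjusted p = 0.0278). Rbp4, Afp and Ambp, genes known from liver and visceral endoderm, were lower with Isl1. Rbp4, the plasma retinol carrier, had 13.3 and 48.7 CPM against 305 and 228 (-3.02 ± 0.36, edgeR adjusted p = 1.87e-06). Afp, alpha-fetoprotein, had 31.1 and 3.75 CPM against 148 and 83.6, and Ambp, a plasma protein precursor, had 8.88 and 22.5 against 142 and 83.6. Rbp4 and Afp are among the hepatoblast gate markers. Cald1, the actin-binding caldesmon, had 84.4 and 101 CPM against 253 and 346 (-1.64 ± 0.26, edgeR adjusted p = 0.000426), and Mt1, a metallothionein, had 360 and 558 against 697 and 840. Nrp2, a semaphorin co-receptor, had 3 UMIs in cells with Isl1 against 35 (ratio 9.66 in favour of cells without, exact 95% interval 3.04 to 49.1, counting error only). Nepn and the haemoglobin gene Hbb-bs also passed, with 44 of 49 Nepn UMIs of Isl1 cells in replicate 2 from 1 cell, and 42 of 54 Hbb-bs UMIs of the other cells in replicate 1 from 1 cell. Without replicate 1 the log2 difference of Nepn was 0.0077. DESeq2 called Rbp4 and Cald1, and without the library block 1 gene passed (edgeR). Removing the highest 5% of doublet scores left 4 calls.

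Neurons with Isl1 (14 and 17 cells) were compared with the others (31 and 26) in an added fit with smaller arms. Of 6794 genes, 8 passed (0.118%), 2 higher (0.0294%) and 6 lower (0.0883%). Neurod1, a proneural factor of cranial sensory neurons, had 791 and 1370 CPM against 139 and 412 (1.93 ± 0.35, edgeR adjusted p = 0.000475). Nefm, a neurofilament gene and a gate marker of the class, had 4425 and 4568 CPM against 1791 and 2099 (1.13 ± 0.16, edgeR adjusted p = 1.06e-06). Flrt3, an adhesion molecule, and Nr2f1, a nuclear receptor, had 0 UMIs in cells with Isl1 and were at least 2.46-fold and 2.12-fold higher in the others. Col3a1, Dlk1, Mest and Serpinh1 were lower with Isl1, and for Col3a1, Dlk1, Mest, Serpinh1, Nr2f1 and Neurod1 more than 50% of the UMIs of the higher arm came from 1 cell in at least 1 library. Of 6 measured genes of Isl1 neuron subtypes, 0 passed and 5 had differences above 0. Pou4f1, a sensory neuron factor, had 94.1 and 131 CPM against 13.9 and 13.3 (edgeR adjusted p = 0.661). DESeq2 called 2 genes, and without the library block 0 passed (edgeR).

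Across the 26 sums of 13 classes, the genes whose log2(CPM + 10) was most like Isl1, among 6221 genes with at least 50 CPM in a class and no gate marker, included Smim14 (Pearson r = 0.78), Tgfb2 (0.75), Phlda1 (0.74), R3hdm2 (0.74) and Rsrp1 (0.74). Tgfb2 encodes a growth factor of the outflow tract and cushions and was highest in cardiomyocytes. For Osr1 they were Gata5 (0.77), a GATA factor of endocardium and heart, Ifitm1 (0.75), Ghr (0.73), the growth hormone receptor, Fras1 (0.72) and Capn6 (0.72), and Smoc2 (0.71). Isl1 and Osr1 had r = 0.59 with each other. The sums of a library share its depth and embryos, so these values describe the classes and carry no p.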

How the data were processed

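Single-cell expression was measured in 2 libraries of 1 group. The deposited values are UMI counts per gene identifier and barcode, whole numbers with no normalization as far as the files show. The submitters' processing notes name mm10 and Scanpy without versions, but no source used here names an aligner, a counter or the rule for keeping barcodes. The genes, lists, gates and tests were chosen with earlier results of these data known. Gene totals of the 2 libraries differed by far more than sampling noise (chi-square per degree of freedom 22.96, 18991 genes), so each counted as 1 replicate.

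UMIs were summed per library and class, or per class and presence of a UMI, scaled to CPM (UMIs per 1000000) as levels, and tested with edgeR 4.0.16 (R 4.3.3; quasi-likelihood F test, two-sided, TMM, filterByExpr, library as a block because classes of a library share embryos and day). Residual degrees of freedom were 12 for classes, 5 for the arms, 7 with neurons and 3 for the split on Isl1. Benjamini-Hochberg adjustment ran over all genes tested, and a gene passed at 0.05. The p-values rest on 2 libraries. Gate markers were left out of the class table, Isl1 out of tables split by it, and Osr1 out of the 4 progenitor contrasts. The SE is the log2 difference over the root of F, and the interval is 1.96 SE. Arms needed at least 15 cells per library, and 10 in the fit that adds neurons. The fit was also run on simulated counts, drawn without differences between the libraries beyond depth, so that run does not measure the effect of such differences. Doublets were kept: Scrublet marked 0 and 1 cells. Removing the highest 5% of scores is an alternative, as are DESeq2 1.42.0 and the others named below. Ties at the cut were kept, so it removed 163 and 194 cells. Thinning to 1000 UMIs left out 1500 and 1591 cells.

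Named genes are the 8 largest log2 differences in each direction among genes that passed, provided both libraries moved the same way and the higher arm reached 50 CPM, and up to 4 members per list by smallest p. Ccnd2 and Dkk1 were named after their values were seen, as were the genes of the 4-arm plot. Gene coordinates come from GENCODE M21. Some genes that the rules would name are not reported here.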

Additional observations from a re-analysis of the deposited data

How the results depend on the processing

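Osr1 was higher in progenitors than in each of the 4 classes under every alternative run, with thinned cells giving no value because Osr1 then fell under the filter on low counts. Single libraries gave 4.33 to 5.29 against the neural tube and 4.44 to 5.29 against neurons. For Isl1, progenitors minus cardiomyocytes turned to 0.0399 without the low-count filter and 0.12 with thinned cells (single libraries -0.45 to 0.73). Against endoderm single libraries gave -0.75 to -0.12, against the neural tube 3.58 to 3.64 (6.06 with thinned cells, adjusted p 0.0715), and against neurons -1.51 to -1.04. Without the replicate block the 4 Osr1 class contrasts and the Isl1 contrasts with neural tube and neuron still passed.

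Counts of called genes moved most, and the cause was not tested. For Isl1-only minus Osr1-only cells (18) they were 31 without the filter, 4 with DESeq2, 0 without the replicate block, 103 with 1 more marker and 0 thinned. For Isl1-only minus neither (14) they were 33, 2, 0, 38 and 2 in that order. For Osr1-only minus neither (62) DESeq2 gave 7, no replicate block 6, 1 more marker 133 and thinning 2. For both minus neither (46) the 5 values were 76, 4, 2, 142 and 1. For endoderm (9) they were 15, 2, 1, 18 and 0, and 4 without high doublet scores. For neurons (8) DESeq2 gave 2, no replicate block 0 and thinning 0. For progenitors split on Isl1 (47) DESeq2 gave 2, no replicate block 0, 1 more marker 90 and thinning 1. Counts without a library could not be fitted, since no residual degrees of freedom remain.

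Osr1 in progenitors with minus without Isl1 (0.61) was 0.53 without the filter, 0.61 with DESeq2, 0.61 with no replicate block, 0.37 with 1 more marker and 0.43 thinned, and passed in none of these. In endoderm 1 more marker turned it to 0.31. The share of Isl1 progenitors with Osr1 (mean 51.1%) was 58.7% with 1 more marker, 53.2% with at least 800 genes, 52.2% without high doublet scores and 26.8% thinned. The share without Isl1 (25.6%) was 41.9%, 29.6% and, thinned, 19.8%. Of 79 values of named genes, 14 passed with DESeq2, 4 with no replicate block, 68 without high doublet scores and 79 with RLE size factors. Thinned, 3 still passed, 17 did not, 2 turned and the rest of the 79 gave no value. By more than 1 SE, 49 moved without replicate 1 and 36 without replicate 2, and 35 with the top cell left out. Turned in sign were Nepn in endoderm without one of the libraries (-4.86 to 0.0077) and, thinned, Mest (0.33) and Serpinh1 (0.47) in neurons. Leaving out the top cell of a gene, cells with markers of the other germ layer, the fit with neurons, the split on Isl1 and the depth bands were added after seeing the data. Most progenitors with a UMI of either gene had 1 or 2, so depth limits every statement on cells without one.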

Other observations

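Most cells with either gene lay outside the gates. Of 1028 cells with an Isl1 UMI, 17.9% were gated as progenitors, 9.05% as foregut endoderm, 3.21% as pharyngeal mesoderm and 3.02% as neurons, and 57.2% were in no class or in several. Of 897 cells with Osr1, 32.1% were progenitors, 7.58% endoderm and 53.2% outside. In these ungated cells, at medians of 1065 and 1171.5 UMIs, Isl1 stood at 67.2 and 73.6 CPM and Osr1 at 82.5 and 57.5 CPM. Over all kept cells both genes were found together in 146 and 118 cells.

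Surface ectoderm had Isl1 in 3 of 52 and 19 of 119 cells and Osr1 in 2 and 5, with 0 cells that had both (1 of 25 Isl1 cells of replicate 2 with 1 more marker required, and 2 of 3 of replicate 1 thinned). Epicardium or mesothelium had Isl1 in 1 of 34 and 6 of 44 cells. Hepatoblasts, 28 and 14 cells, had 0 Isl1 UMIs.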
